A study of Mus musculus with 14 samples.

Results

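The 10 genes described here encode enzymes that crosslink or hydroxylate collagen in the mouse. They were found by symbol in both expression tables, which list 23284 genes each, and all 10 were present. The set holds 5 lysyl oxidases (Lox, Loxl1, Loxl2, Loxl3 and Loxl4), 3 lysyl hydroxylases (Plod1, Plod2 and Plod3) and 2 alpha subunits of prolyl 4-hydroxylase (P4ha1 and P4ha2). EpH4 cells are an established epithelial line from the mammary gland of the mouse. EpRas cells derive from them by transformation with oncogenic H-Ras. mRNA was sequenced from EpH4 cells and EpRas cells that were left untreated or received TGF-β3 at 1 ng/ml for 48 h, with 2 libraries for each of these 4 groups. mRNA was also sequenced from EpRas cells that carried a negative control siRNA (siNC) or 1 of 2 pairs of siRNAs against the transcription factors Etv4 and Etv5, untreated or with TGF-β, with 1 library for each of these 6 conditions. EpH4 cells were cultured in 10% and EpRas cells in 4% fetal bovine serum, so serum and transformation cannot be told apart in any comparison between the lines. EpRas is 1 transformed line, and the study describes the libraries of a group as biological replicates without saying whether they were separate cultures, so p-values measure the spread between these libraries only.

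Collagen chains are modified in the endoplasmic reticulum before they fold. Prolyl 4-hydroxylases make the hydroxyproline that holds the triple helix together, and lysyl hydroxylases make the hydroxylysine that later carries sugars and crosslinks. After secretion, lysyl oxidases convert lysine and hydroxylysine side chains of collagen and elastin to aldehydes, from which the covalent crosslinks of the matrix form. Stiffening of the stroma of the mammary gland by such crosslinks is a known feature of breast tumors, and TGF-β is a known inducer of matrix synthesis.

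Expression levels are given in FPKM, in which the fragment number is divided by exon length and by library size, so that levels of different genes can be set side by side. FPKM summed to 502262 to 633763 in an untransfected library and to 533096 to 594299 in a siRNA library. Relative to replicate 1 of untreated EpH4 cells, the depth of an untransfected library was 0.609 to 1.36. The 2 libraries of EpRas cells with TGF-β were the least alike of any pair (Pearson r of log2 values across genes 0.912, against 0.957 to 0.982 in the other 3 groups). Of 6 markers of mammary epithelium, 5 were at 1 FPKM or more in each of the 14 libraries, and the basal keratin Krt5 was listed at 0 in 12 of them and at 0.0856 FPKM or less in the other 2. The levels of these markers moved with the groups. Their sum was 2290 and 2740 FPKM in untreated EpH4 cells, 3840 and 3580 FPKM with TGF-β, 2840 and 2130 FPKM in untreated EpRas cells and 1580 and 2950 FPKM with TGF-β. Epcam was at 293 and 285 FPKM in EpH4 cells without and at 531 and 534 FPKM with TGF-β, but at 64.9 to 149 FPKM in untransfected EpRas libraries. Krt14 was at 326.5 and 386 FPKM in EpH4 cells without and at 851 and 784 FPKM with TGF-β, but at 62.2 to 115.5 FPKM in untransfected EpRas libraries. Cdh1 was likewise higher in EpH4 (49.1 to 93.7 FPKM) than in untransfected EpRas libraries (18.2 to 27.4 FPKM). Krt8 and Krt18 overlapped between the lines. Krt8 was at 703 to 1335 FPKM in EpH4 and 561 to 1361 FPKM in untransfected EpRas libraries, and Krt18 at 922 to 1132 and 868 to 1450 FPKM. These markers also moved with the knockdown. Without TGF-β the level of Krt14 was 109 FPKM under siNC, 236.5 FPKM under pair 1 and 365 FPKM under pair 2, while the TGF-β libraries held 140.1, 214 and 244 FPKM. Krt18 was also higher with both pairs in both treatments, and Krt8 with TGF-β only. Epcam went the other way, at 133, 112 and 111 FPKM without and at 221.5, 155.5 and 153 FPKM with TGF-β. Cdh1 was at 61.3, 63.1 and 48.3 FPKM without and at 68.25, 53.4 and 39.5 FPKM with TGF-β. In the same order, the epithelial markers summed to 2720, 2990 and 3050 FPKM in untreated libraries and to 3050, 4230 and 3950 FPKM in treated ones. The part of these shifts in the results below was not tested. Endothelial markers (Pecam1, Cdh5, Kdr) summed to 2.0 FPKM or less, and the leukocyte markers Ptprc and Itgam were listed at 0 in 13 of 14 libraries each. The third leukocyte marker, Cd68, was at 0.293 to 2.75 FPKM in EpH4, 3.81 to 7.13 FPKM in EpRas and 2.18 to 6.52 FPKM in siRNA libraries. Fibroblast markers also moved with some of the results and are given there.

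In mm10, Loxl1 (chr9:58287738-58313186) and Plod2 (chr9:92542223-92608428) share chromosome 9. Loxl3 lies at chr6:83034173-83052562, Loxl4 at chr19:42593982-42612813, Plod1 at chr4:147909753-147936767, Plod3 at chr5:136987019-136996648, P4ha1 at chr10:59323296-59373304 and P4ha2 at chr11:54100095-54131665. Loxl2 lies at chr14:69609068-69695834 in the same build. The exons of Loxl3 share 535 bases with those of Htra2, those of Plod3 share 529 bases with Znhit1, those of Plod2 share 346 bases with Gm38391, and those of Loxl2 share 301 bases with Gm27177, each on the opposite strand. The libraries were directional, but whether strand was used in counting is not given in the sources used here, so reads in these stretches could belong to either gene.

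Among the members whose change passed the test, RefSeq promoter sequence (GRCm38.p6, the 250 bases before the start) was matched for Loxl4, which had the largest fall with TGF-β, and for Plod1, which differed between the lines and with TGF-β in EpH4 cells. In all, 5 of the 10 members were matched. The sequences are shown 5′ to 3′ along the gene, at chr19:42612807-42613056 and chr4:147936777-147937026, both on the minus strand. Capitals mark the motifs searched on both strands, namely GGAA (the core of ETS sites such as those of Etv4 and Etv5), TGANTCA (AP-1), CAGAC (Smad), and ACGTG and GCGTG (the core of hypoxia response elements).
Loxl4: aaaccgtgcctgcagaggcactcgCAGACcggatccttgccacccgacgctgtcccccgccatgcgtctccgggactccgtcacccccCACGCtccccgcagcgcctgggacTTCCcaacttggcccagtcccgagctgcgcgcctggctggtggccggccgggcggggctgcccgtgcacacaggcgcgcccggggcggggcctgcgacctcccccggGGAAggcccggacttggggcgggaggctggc
Plod1: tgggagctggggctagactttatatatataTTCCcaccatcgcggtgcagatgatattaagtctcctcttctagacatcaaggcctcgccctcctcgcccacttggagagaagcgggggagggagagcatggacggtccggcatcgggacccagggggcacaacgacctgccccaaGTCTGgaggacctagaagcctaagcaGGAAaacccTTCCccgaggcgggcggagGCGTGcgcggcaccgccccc
The Loxl4 window held 2 matches to GGAA, 1 to CAGAC and 1 to GCGTG, and the Plod1 window held 3, 1 and 1. No 2 matches overlapped in these windows, and neither window held TGANTCA or ACGTG. Of 32851 promoters of the same length, 93.4% held GGAA, 42.2% CAGAC, 28.2% GCGTG, 16.6% ACGTG and 6.75% TGANTCA. The matches describe the letters only and are no evidence of binding.

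In the untransfected cells, the lysyl oxidases fell into a high gene (Loxl4), 2 low genes whose level depended on the line (Loxl1 and Loxl3), and 2 genes close to 0 (Lox and Loxl2). Loxl1 was lower, and Loxl3 and Plod1 were higher, in EpRas than in EpH4 cells, and TGF-β lowered Loxl4 in both lines. In EpH4 cells TGF-β also raised Loxl3, Plod1 and Plod2. P4ha1, P4ha2 and Plod3 passed the test in no comparison. Tests were made with limma on log2(FPKM + 1) over 9100 genes with a maximum of 5 FPKM or more, and a gene was called at a Benjamini-Hochberg adjusted p under 0.05. Of the members, 8 were tested, whereas Lox and Loxl2 did not reach 5 FPKM. A tested gene was allowed to reach this level in 1 group only, as Loxl1 did in EpH4 cells with TGF-β.

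**Figure D1:**
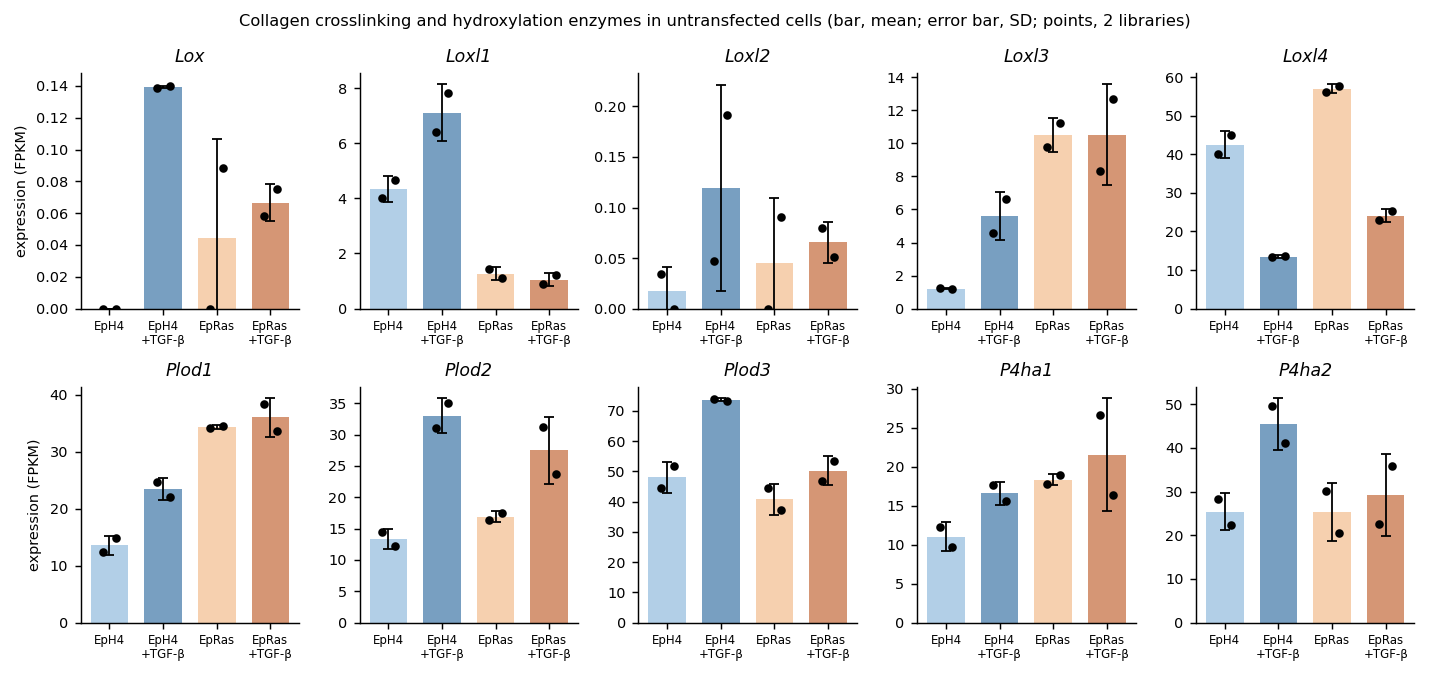
Expression (FPKM, linear axes that differ between panels) of the 10 enzymes in the 4 untransfected groups, with bars for the mean, error bars for the SD and points for the 2 libraries of each group. Loxl4 fell with TGF-β in both lines, from 42.5 to 13.5 FPKM on average in EpH4 cells and from 57.0 to 24.1 FPKM in EpRas cells, and Loxl1 stood at 1.43 FPKM or less in the 4 EpRas libraries.

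Loxl4, which encodes an extracellular lysyl oxidase with scavenger receptor domains, was the most highly expressed lysyl oxidase in every untransfected library. It was at 40.1 and 45.0 FPKM in EpH4 cells left untreated, 13.3 and 13.8 FPKM in EpH4 cells with TGF-β, 56.2 and 57.8 FPKM in untreated EpRas cells, and 22.9 and 25.2 FPKM in EpRas cells treated with TGF-β. No 2 groups overlapped, and the order from low to high was EpH4 with TGF-β, EpRas with TGF-β, EpH4 and EpRas. These levels rested on 294 to 2013 reads per library. The log2 fold change with TGF-β was -1.58 in EpH4 cells (SE 0.14, n = 2, adjusted p = 0.000778 with limma) and -1.21 in EpRas cells (SE 0.14, n = 2, adjusted p = 0.00489 with limma). The fall in EpH4 cells passed the test in each of 16 alternative analyses. The fall in EpRas cells passed in 15 of them and was lost where the 2 EpRas groups were fitted alone (adjusted p = 0.0853 with limma). The 2 responses differed by 0.37 on the log2 scale (95% interval -0.11 to 0.85), and this difference did not pass the test (adjusted p = 0.562 with limma). Between the lines, Loxl4 was higher in EpRas cells with TGF-β by 0.79 (SE 0.14, adjusted p = 0.00825 with limma), a call that was lost without either library of EpH4 cells with TGF-β (adjusted p = 0.0769 without replicate 1 and 0.0615 without replicate 2). Without TGF-β the difference was 0.42 (95% interval 0.08 to 0.76, adjusted p = 0.0928 with limma).

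Loxl3, a further member of the scavenger receptor subgroup, had the widest range over the group means of the 8 members tested. It was at 1.24 and 1.17 FPKM in EpH4 cells left untreated and at 4.60 and 6.64 FPKM in EpH4 cells with TGF-β. In EpRas cells it was at 9.81 and 11.2 FPKM without and at 8.35 and 12.7 FPKM with TGF-β. The 2 EpRas groups overlapped each other and lay above both EpH4 groups, and the highest group mean was 8.72 times the lowest. Its reads numbered 28 and 36 in untreated EpH4 cells and 75 to 288 elsewhere. Without TGF-β, Loxl3 was higher in EpRas cells by 2.38 on the log2(FPKM + 1) scale (SE 0.23, n = 2, adjusted p = 0.000694 with limma), and this call held in each of 15 alternative analyses. The scale understates changes of low genes, and the same difference was 3.02 with 0.1 FPKM added and 1.32 with 5 FPKM added. TGF-β raised Loxl3 in EpH4 cells by 1.57 (SE 0.23, adjusted p = 0.00711 with limma). This call was lost without replicate 2 of untreated EpH4 cells (adjusted p = 0.0544) and without replicate 2 of EpH4 cells with TGF-β (adjusted p = 0.0718), and the value fell to 0.77 with 5 FPKM added. In EpRas cells the effect of TGF-β on Loxl3 was -0.02 (95% interval -0.57 to 0.52). The difference between the 2 responses was -1.59 (SE 0.33), which did not pass the test over all genes (adjusted p = 0.111 with limma, unadjusted p = 0.00168). With TGF-β the lines differed by 0.79 (adjusted p = 0.0504 with limma), just above the threshold, and 3 of 15 alternative analyses called it, among them the fit without replicate 1 of EpRas cells with TGF-β (adjusted p = 0.0287).

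Loxl1, which acts on elastic fibers in particular, went the opposite way between the lines. It was at 4.02 and 4.68 FPKM in EpH4 cells left untreated and at 6.39 and 7.84 FPKM in EpH4 cells with TGF-β. In EpRas cells it was at 1.43 and 1.10 FPKM without and at 0.886 and 1.22 FPKM with TGF-β. All 4 EpRas libraries lay below all 4 EpH4 libraries, with 14 to 23 reads in each against 74 to 155. Loxl1 was lower in EpRas cells without TGF-β (log2 fold change -1.24, SE 0.18, adjusted p = 0.00382 with limma) and also with TGF-β (log2 fold change -1.98, SE 0.18, adjusted p = 0.000317 with limma). Since Loxl1 entered the test through EpH4 cells with TGF-β, the high group of the second comparison, it was also fitted with no filter on level, where the adjusted p was 0.00543 and 0.000884 with limma. Both calls held in each of 15 alternative analyses, while the size without TGF-β ranged from -1.71 with 0.1 FPKM added to -0.58 with 5 FPKM added. The 2 EpH4 groups did not overlap, but the effect of TGF-β in these cells, 0.60 (95% interval 0.18 to 1.01), did not pass the test (adjusted p = 0.0844 with limma). In EpRas cells it was -0.14 (95% interval -0.56 to 0.27).

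Lox, the founding member of the family, was listed at 0 in both libraries of untreated EpH4 cells and in 1 of untreated EpRas cells, and at 0.140 FPKM or less elsewhere, which corresponds to at most 3 reads in an untransfected library. Loxl2 was listed at 0 in 1 library of each untreated group and reached 0.191 FPKM, or 6 reads, in 1 library of EpH4 cells with TGF-β. No difference between groups could be detected at this depth for either gene.

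The shares of the lysyl oxidases are given as a description, with no test. Loxl4 held 88.3 and 88.5% of the summed FPKM of the 5 lysyl oxidases in untreated EpH4 cells and 54.3 and 48.2% with TGF-β. In EpRas cells its share was 83.3 and 82.2% without and 70.9 and 64.3% with TGF-β. The share of Loxl1 in EpH4 cells was 8.9 and 9.2% without and 26.2 and 27.4% with TGF-β, and that of Loxl3 was 2.7 and 2.3% without and 18.8 and 23.2% with TGF-β. In EpRas cells the share of Loxl3 was 14.5 and 16.0% without and 25.9 and 32.3% with TGF-β, while its mean level was 10.5 FPKM in both groups. The sum over the family was 45.3 and 50.8 FPKM in EpH4 cells and 24.4 and 28.6 FPKM with TGF-β, and 67.4 and 70.3 FPKM in EpRas cells and 32.3 and 39.2 FPKM with TGF-β.

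**Figure D2:**
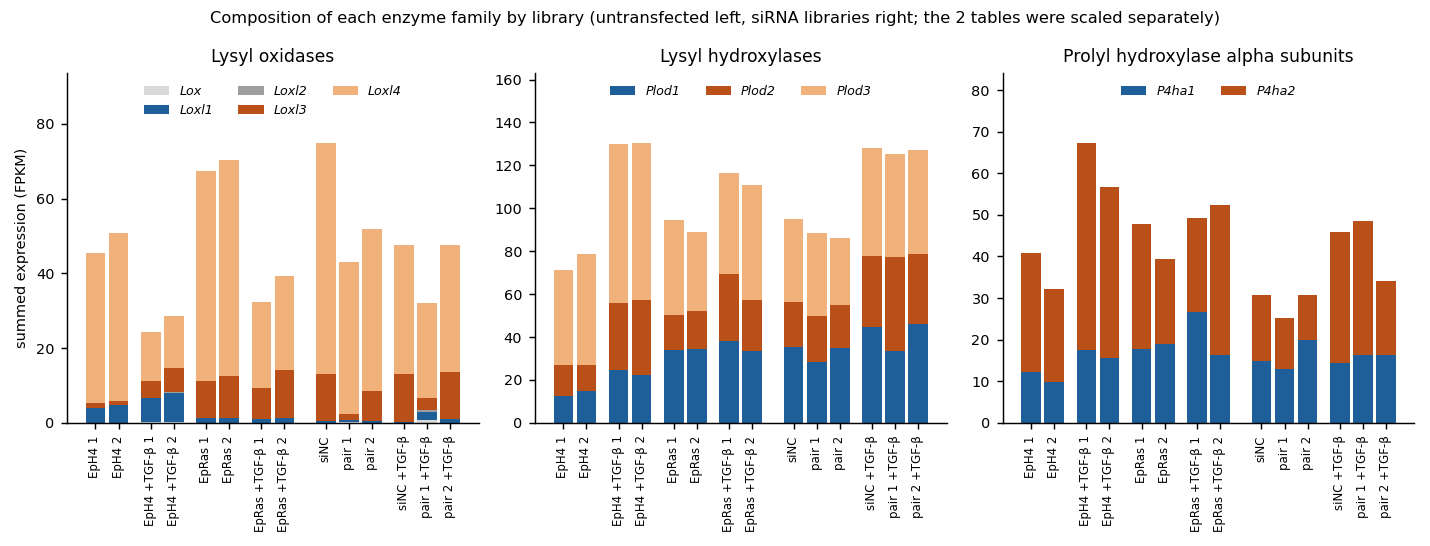
Summed expression (FPKM) of the 5 lysyl oxidases, 3 lysyl hydroxylases and 2 prolyl 4-hydroxylase alpha subunits in each of the 14 libraries, with each gene as a stacked segment. The 8 untransfected libraries stand on the left and the 6 siRNA libraries on the right of each panel, and the heights of the 2 sets were scaled separately; the lysyl oxidase sum was lower with TGF-β in both untransfected lines, mostly in the Loxl4 segment, while the lysyl hydroxylase sum in EpH4 cells was 71.3 and 78.7 FPKM without and 129.8 and 130.4 FPKM with TGF-β.

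Among the lysyl hydroxylases, Plod1, which modifies lysines of the triple helix, was lower in the EpH4 libraries than in any EpRas library. It was at 12.3 and 14.8 FPKM in EpH4 cells left untreated, 24.7 and 22.1 FPKM in EpH4 cells with TGF-β, 34.1 and 34.6 FPKM in untreated EpRas cells, and 38.4 and 33.6 FPKM in EpRas cells treated with TGF-β. Only the 2 EpRas groups overlapped. Plod1 was higher in EpRas cells by 1.28 without TGF-β (SE 0.16, adjusted p = 0.00221 with limma), which held in each of 16 alternative analyses. It was higher by 0.60 with TGF-β (SE 0.16, adjusted p = 0.0365 with limma), and TGF-β raised it in EpH4 cells by 0.75 (SE 0.16, adjusted p = 0.0296 with limma). These 2 calls were near the threshold and were kept in 9 and 8 of the 16 alternatives. The first was lost without either library of EpH4 cells with TGF-β, either of untreated EpRas cells or replicate 1 of EpRas cells with TGF-β (adjusted p = 0.0609 to 0.208 with limma), and the second without any of the 4 EpH4 libraries or either of untreated EpRas cells (adjusted p = 0.0589 to 0.231 with limma). Both were also lost where only the groups compared were fitted (adjusted p = 0.0835 and 0.0534 with limma). A block for the replicate number ended both calls too (adjusted p = 0.0762 and 0.0718 with limma). In EpRas cells the effect of TGF-β on Plod1 was 0.06 (95% interval -0.31 to 0.44), and the difference between the 2 responses was -0.69 (95% interval -1.22 to -0.15, adjusted p = 0.327 with limma).

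Plod2, the lysyl hydroxylase of the collagen telopeptides and so of the crosslinks that start from hydroxylysine, was higher in the 4 libraries with TGF-β than in the 4 without. It was at 14.5 and 12.3 FPKM in EpH4 cells left untreated, 31.0 and 35.0 FPKM in EpH4 cells with TGF-β, 16.3 and 17.5 FPKM in untreated EpRas cells, and 31.2 and 23.7 FPKM in EpRas cells treated with TGF-β. The 2 groups with TGF-β overlapped each other. TGF-β raised Plod2 in EpH4 cells by 1.24 (SE 0.18, adjusted p = 0.00687 with limma). The call was lost in 3 of 16 alternative analyses, which left out replicate 2 of untreated EpH4 cells (adjusted p = 0.0562) or replicate 1 or 2 of EpH4 cells with TGF-β (adjusted p = 0.0554 and 0.0774). In EpRas cells the effect was 0.66 (95% interval 0.23 to 1.09) and did not pass the test (adjusted p = 0.121 with limma). The responses of the lines differed by -0.59 (95% interval -1.20 to 0.02, adjusted p = 0.474 with limma), so a weaker response of EpRas cells was not shown.

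Except in untreated EpRas cells, where Loxl4 was higher, Plod3 was the most highly expressed of the 10 genes in each untransfected group. This enzyme also transfers sugars to hydroxylysine. Its level was 44.4 and 51.6 FPKM in EpH4 cells left untreated, 74.0 and 73.3 FPKM in EpH4 cells with TGF-β, 44.4 and 37.1 FPKM in untreated EpRas cells, and 46.8 and 53.5 FPKM in EpRas cells treated with TGF-β. EpH4 cells with TGF-β lay above the 3 other groups. The effect of TGF-β in EpH4 cells was 0.61 (SE 0.17, adjusted p = 0.0655 with limma), and EpRas cells differed from EpH4 cells with TGF-β by -0.55 (SE 0.17, adjusted p = 0.055 with limma). Neither passed the test, although 1 and 4 of 16 alternative analyses called them.

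P4ha1 and P4ha2 encode catalytic subunits of the prolyl 4-hydroxylase tetramer. P4ha1 was at 12.3 and 9.71 FPKM in EpH4 cells left untreated, 17.6 and 15.6 FPKM in EpH4 cells with TGF-β, 17.8 and 18.9 FPKM in untreated EpRas cells, and 26.7 and 16.4 FPKM in EpRas cells treated with TGF-β. P4ha2 was at 28.4 and 22.4 FPKM in EpH4 cells left untreated, 49.6 and 41.2 FPKM in EpH4 cells with TGF-β, 30.1 and 20.6 FPKM in untreated EpRas cells, and 22.6 and 35.8 FPKM in EpRas cells treated with TGF-β. In EpH4 cells both genes were higher in each library with TGF-β than in either without, with effects of 0.56 for P4ha1 (adjusted p = 0.212 with limma) and 0.82 for P4ha2 (95% interval 0.17 to 1.47, adjusted p = 0.125 with limma). In EpRas cells the groups without and with TGF-β overlapped for both. Between the lines without TGF-β, P4ha1 differed by 0.70 (95% interval 0.13 to 1.26, adjusted p = 0.0898 with limma), and P4ha2 by -0.02 (95% interval -0.67 to 0.63). The 2 libraries of EpRas cells with TGF-β differed in opposite directions for the 2 genes. P4ha2 thus held 45.9% of the summed level of both in 1 library and 68.6% in the other.

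**Figure D3:**
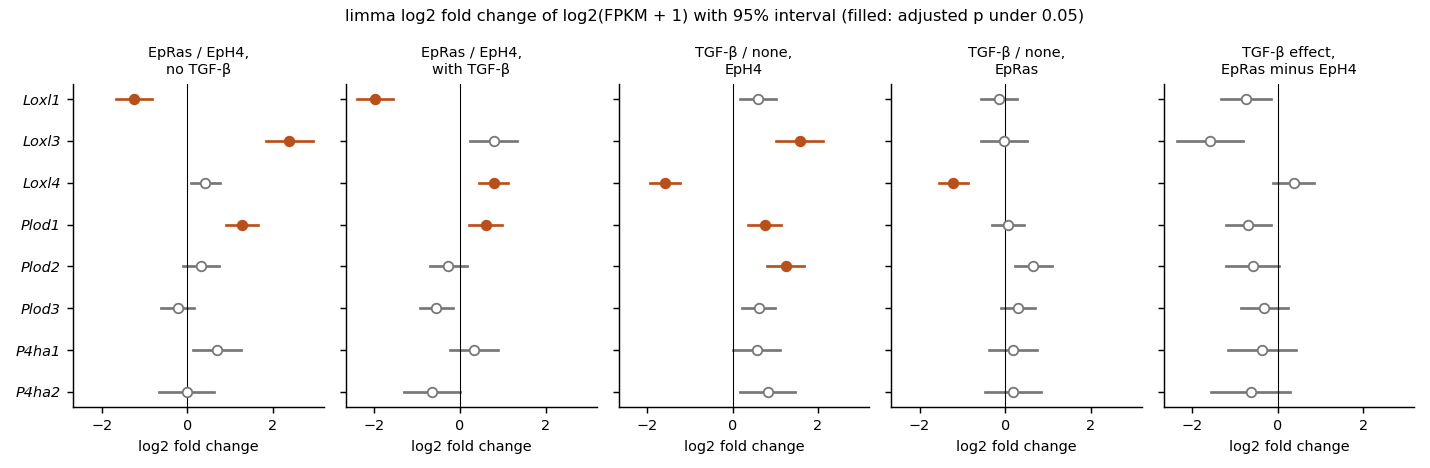
Log2 fold changes of log2(FPKM + 1) for the 8 tested members in 5 comparisons, with 95% intervals from limma (n = 2 libraries per group). Filled points mark adjusted p under 0.05, and the rightmost panel, the difference between the TGF-β effects, holds none.

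Counted over the members, EpRas cells without TGF-β had 2 of 8 tested members higher and 1 lower, where 8.45% of all genes tested were higher and 9.11% lower. With TGF-β the counts were 2 higher and 1 lower, against 8.92% and 12.3% of all genes. The 1 lower was Loxl1 in both, which passed the filter only through EpH4 cells with TGF-β, so nothing is read from the counts that include it. TGF-β raised 3 and lowered 1 of the 8 in EpH4 cells, where 6.48% of all genes rose and 2.91% fell. Loxl1 was not among those called. In EpRas cells TGF-β raised 0 and lowered 1, where 1.9% of all genes rose and 1.92% fell. The difference between the responses was called by limma for 0 of the 8 and for 0.802% of all genes. The median log2 effect of TGF-β over the 8 members was 0.68 in EpH4 cells and 0.12 in EpRas cells, beside a median of -0.02 over all genes in each line. The median of the differences between the responses was -0.61, beside -0.03 over all genes, and 7 of the 8 were below 0. These medians and the 7 of 8 include Loxl1, which had to be high in EpH4 cells with TGF-β, so nothing is read from them. The comparisons share libraries and are not independent of each other. EpH4 cells with TGF-β also had the highest sum of 5 fibroblast markers, at 247 and 222 FPKM against 22.6 and 26.8 FPKM without TGF-β and 8.42 to 13.5 FPKM in EpRas cells. Most of it was Col1a1, which is itself a substrate of these enzymes. Pdgfrb was at 8.24 and 7.22 FPKM there and Pdgfra at 2.27 and 2.07 FPKM, against 0.988 FPKM or less for both in untreated EpH4 cells. These 2 receptors were not particular to that group, since Pdgfrb was at 3.81 to 8.11 FPKM and Pdgfra at 2.33 to 3.16 FPKM in EpRas libraries. Col1a2 was at 13.2 and 12.3 FPKM in EpH4 cells with TGF-β, against 2.38 and 3.53 FPKM without. It was at 0.735 FPKM or less in untransfected EpRas libraries. Dcn was listed at 0 in all 4 EpH4 libraries. The part of other cells in the result was not tested, and in bulk RNA fewer cells of a type and less RNA per cell cannot be told apart.

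Over the 8 untransfected libraries, the member pairs most alike were Loxl3 and Plod1 (Pearson r of log2(FPKM + 1) 0.94), Plod1 and P4ha1 (0.86), and Plod3 and P4ha2 (0.85). Loxl4 ran against Plod3 (r = -0.89), Plod2 (-0.88) and P4ha2 (-0.76). These are descriptions over 8 libraries that form 4 groups. Among all genes tested, the closest to Loxl4 were Eps8, an actin regulator (r = 0.987), Rhpn2 (0.987) and Sdpr, a component of caveolae (0.984). The closest to Loxl1 were Eng, a TGF-β co-receptor (0.993), Sulf1, an editor of heparan sulfate (0.993), and Fam5c (0.992). Eng was at 45.2 to 116 FPKM in EpH4 and 9.83 to 15.5 FPKM in EpRas libraries, and Sulf1 was listed at 0 in all 4 EpRas libraries. The closest to Loxl3 were Adipor1 (0.987), Atp8b2 (0.984) and the ephrin receptor Ephb2 (0.981), to Plod1 Lix1l (0.987), Kidins220 (0.986) and the lysophosphatidic acid receptor Lpar1 (0.983), and to Plod2 Fndc3b (0.994), Serinc2 (0.986) and the metalloprotease Adam12 (0.982).

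Among 16 other enzymes and chaperones of collagen folding, 10 were tested, and limma called 5 higher and 1 lower with TGF-β in EpH4 cells, beside 6.48% and 2.91% of all genes. The largest changes were those of Lepre1, a prolyl 3-hydroxylase (log2 fold change 1.44, adjusted p = 0.0163 with limma), Sparc, a matricellular collagen chaperone (1.42, adjusted p = 0.00461), Leprel1, a further prolyl 3-hydroxylase (-1.01, adjusted p = 0.0115), and Serpinh1, the collagen chaperone Hsp47 (0.93, adjusted p = 0.0112). Serpinh1 was at 372 and 392 FPKM without and at 756 and 700 FPKM with TGF-β. In EpRas cells 1 of the 10 was called higher, Sparc (0.98, adjusted p = 0.0363 with limma), and 1 lower, Leprel1 (-0.88, adjusted p = 0.0347), beside 1.9% and 1.92% of all genes. Leprel1 was at 5.71 to 8.08 FPKM in untreated libraries and at 2.09 to 3.88 FPKM with TGF-β. It thus passed the filter only through the high group of both TGF-β comparisons, and nothing is read from the counts of lower genes. The difference between the responses was called for 0 of the 10, beside 0.802% of all genes. Between the lines without TGF-β, Serpinh1 was lower in EpRas cells (-0.78, adjusted p = 0.0139 with limma), and P4hb, the beta subunit that P4ha1 and P4ha2 require (0.74, adjusted p = 0.011), and Glt25d1, which adds galactose to hydroxylysine (0.66, adjusted p = 0.0281), were higher. With TGF-β, Serpinh1 (-1.24, adjusted p = 0.00148 with limma) was the only one of the 10 called. Of all genes, 8.45% were called higher and 9.11% lower between the lines without TGF-β, and 8.92% and 12.3% with TGF-β. P4hb was at 192 and 200 FPKM without TGF-β in EpH4 cells, at 363 and 369 FPKM with TGF-β, and between 320 and 378 FPKM in EpRas libraries, far above either alpha subunit in each. Of these calls, that of Serpinh1 between the lines with TGF-β held in each alternative analysis. The others were lost without at least 1 library of the groups compared, with limma adjusted p up to 0.134 between the lines without TGF-β, 0.143 for TGF-β in EpH4 cells and 0.215 for TGF-β in EpRas cells. Sparc and Leprel1 in EpRas cells were also lost where only the groups compared were fitted (adjusted p = 0.243 and 0.214 with limma), as was Lepre1 in EpH4 cells (0.0504). In EpRas cells Sparc was lost with no filter and with an intensity trend (0.0503 and 0.0607 with limma), and Leprel1 with 5 FPKM added before the logarithm (0.0629).

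Of 8 proteases and enhancers that trim procollagen, 4 were tested. Adamts14, an N-propeptidase that passed the filter through EpRas cells only, did not exceed 0.0636 FPKM in EpH4 cells and was at 24.3 to 55.0 FPKM in EpRas cells (log2 fold change 4.81 without and 5.48 with TGF-β, adjusted p = 2.2e-05 and 1.11e-05 with limma). Bmp1, the C-propeptidase, which also activates pro-lysyl oxidases, was at 51.7 and 55.6 FPKM in EpH4 cells left untreated and at 239 and 215 FPKM with TGF-β (2.06, adjusted p = 0.0017 with limma). Of 12 fibrillar collagen chains and elastin, 4 were tested (Col1a1, Col1a2, Col5a3 and Col27a1). Col1a2 and Col27a1 reached 5 FPKM in EpH4 cells with TGF-β only and so had to be high there, and no count over the 4 is read. Col1a1 was at 18.7 and 21.2 FPKM in EpH4 cells without and at 224 and 200 FPKM with TGF-β, and did not exceed 2.78 FPKM in EpRas cells. Its difference between the responses was -3.12 (SE 0.29, adjusted p = 0.00729 with limma), lower in EpRas cells. The calls of Adamts14 and Bmp1 held in each alternative analysis, among them a fit with no filter on level. The difference for Col1a1 was lost without replicate 1 or 2 of EpH4 cells with TGF-β. It was also lost without replicate 1 of untreated EpH4 cells or replicate 2 of untreated EpRas cells.

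The siRNA libraries addressed whether Etv4 and Etv5 bear on these genes in EpRas cells. Without TGF-β the level of Etv4 was 57.4 FPKM under siNC, 11.6 FPKM under pair 1 and 27.9 FPKM under pair 2, and with TGF-β it was 64.3, 12.6 and 18.9 FPKM. Etv5 was at 8.85, 1.61 and 1.26 FPKM without and at 5.34, 1.24 and 1.20 FPKM with TGF-β. Both targets were thus lower with either pair, and Etv4 less so with pair 2 than with pair 1. With 1 library per condition there is no replicate check and no test, and the intervals given for ratios (exact, 95%) cover counting error only. Of the 10 members, 7 reached 5 FPKM in this table. A change was counted where it passed 2-fold in both pairs, which none of these 7 did without or with TGF-β. Of the 3 members below 5 FPKM, Loxl1 passed 2-fold higher in both pairs with TGF-β, from 6 reads with siNC, as given below. Of all 9094 genes at this level, 3.05% were lower and 2.23% higher in both pairs without TGF-β, and 2.98% and 1.87% with TGF-β.

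**Figure D4:**
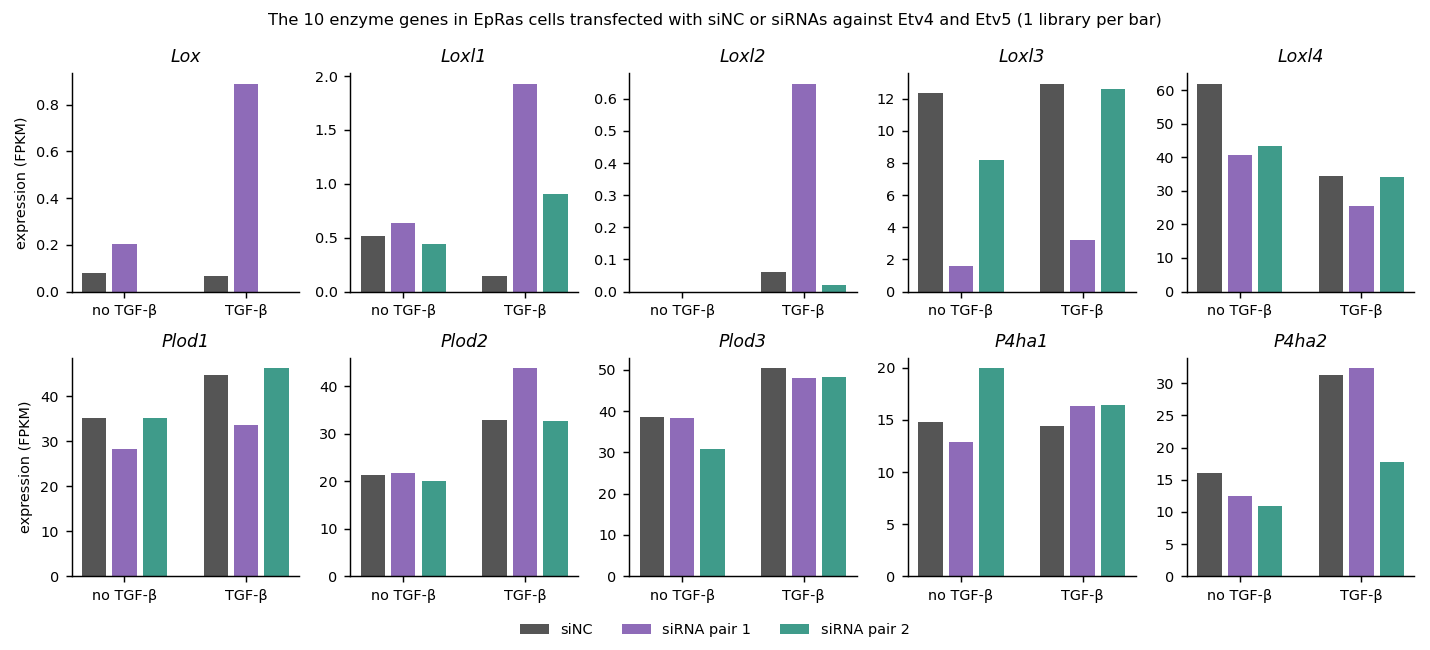
Expression (FPKM, linear axes that differ between panels) of the 10 enzymes in EpRas cells transfected with siNC or with siRNA pair 1 or 2 against Etv4 and Etv5, with 1 library per bar and no error. Loxl3 was lower with pair 1 in both treatments, at 12.9% of siNC without and 24.9% with TGF-β, while pair 2 left it at 66.3% and 97.2%.

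As a ratio to siNC, Loxl3 was the lowest of the 7 members with siRNA pair 1 in both treatments. Without TGF-β its level was 12.4 FPKM under siNC, 1.60 FPKM under pair 1 and 8.20 FPKM under pair 2, and it was 12.9, 3.22 and 12.6 FPKM with TGF-β. The 2 libraries with pair 1 were the lowest, and pair 2 without TGF-β lay between them and the other 3. Relative to siNC, the level without TGF-β was 0.129 with pair 1 (interval 0.0971 to 0.170) and 0.663 with pair 2 (0.567 to 0.777). With TGF-β it was 0.249 with pair 1 (0.204 to 0.302) and 0.972 with pair 2 (0.859 to 1.10). Whatever their level with pair 2, 5.77% of all genes were past 2-fold lower with pair 1 without and 6.59% with TGF-β, and 2.73% and 3.61% were so with pair 1 but not with pair 2. Read numbers of Loxl3 in this table were set from the size of 1 read in the untransfected table. With siRNA pair 1 and no TGF-β, Loxl3 held 3.7% of the lysyl oxidase sum, against 16.5% with siNC and 15.8% with pair 2.

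Without TGF-β the level of Loxl4 was 61.9 FPKM under siNC, 40.6 FPKM under pair 1 and 43.3 FPKM under pair 2, and it was 34.5, 25.4 and 34.2 FPKM with TGF-β. Without TGF-β both pairs were lower than siNC, by ratios of 0.656 (interval 0.619 to 0.696) and 0.699 (0.659 to 0.741), from 2141 to 2407 reads. With TGF-β the ratios were 0.736 (0.688 to 0.787) and 0.992 (0.931 to 1.06). TGF-β went with lower Loxl4 in each of the 3 transfections, at 0.558 of the untreated level with siNC, 0.625 with pair 1 and 0.791 with pair 2, none of them past 2-fold. In all 3 transfections, 1.65% of all genes were past 2-fold higher and 0.957% past 2-fold lower with TGF-β, and none of the 7 members was among them.

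Plod1 was at 35.3, 28.2 and 35.1 FPKM with siNC, pair 1 and pair 2 in the absence of TGF-β. With TGF-β the levels were 44.8, 33.6 and 46.2 FPKM. Its ratio to siNC was 0.800 and 0.750 with pair 1, and 0.996 and 1.03 with pair 2. Plod2 was at 21.3, 21.8 and 20.1 FPKM without and at 32.9, 43.7 and 32.6 FPKM with TGF-β, so the 3 libraries with TGF-β were higher than the 3 without. Plod3 was at 38.6, 38.3 and 30.8 FPKM without and at 50.3, 48.0 and 48.4 FPKM with TGF-β, with the same separation. P4ha2 was at 16.1, 12.4 and 10.8 FPKM without and at 31.3, 32.3 and 17.8 FPKM with TGF-β, with ratios of the level with TGF-β to that without of 1.95, 2.60 and 1.64. The level of P4ha1 was 14.8, 12.9 and 19.9 FPKM in untreated libraries, against 14.5, 16.3 and 16.4 FPKM in treated ones. Its ratio to siNC with pair 2 was 1.35 (interval 1.19 to 1.52) without and 1.13 (1.01 to 1.27) with TGF-β, while pair 1 gave ratios of 0.871 and 1.13.

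The 3 members below 5 FPKM were highest in 1 library, that of siRNA pair 1 with TGF-β. Loxl1 was at 1.93 FPKM there (62 reads), against 0.148 FPKM with siNC and TGF-β (6 reads), a ratio of 13.0 (interval 5.66 to 36.9), and at 0.902 FPKM with pair 2 and TGF-β (26 reads), a ratio of 6.10 (2.45 to 18.1). Without TGF-β it was at 0.515, 0.632 and 0.439 FPKM. Lox was at 0.889 FPKM with pair 1 and TGF-β (31 reads), against 3 reads with siNC and TGF-β, a ratio of 13.0 (4.07 to 66.7), and was listed at 0 with pair 2 in both treatments. Loxl2 was at 0.647 FPKM with pair 1 and TGF-β (33 reads), against 4 reads with siNC and TGF-β, a ratio of 10.4 (3.70 to 40.5), and at 1 read with pair 2 and TGF-β. The same library had the highest sum of fibroblast markers among the 6, at 43.1 FPKM against 11.6 FPKM with siNC and TGF-β and 22.4 FPKM with pair 2 and TGF-β, of which Col1a1 made up 27.7, 2.44 and 5.40 FPKM. In the same order, Pdgfra was at 2.33, 6.79 and 3.86 FPKM and Pdgfrb at 10.08, 2.09 and 12.02 FPKM, so these 2 markers were not highest there. Col1a2, at 3.04, 0.282 and 1.15 FPKM, was highest there. Dcn was listed at 0 in these 3 libraries, and the part of other cells was not tested. Of the other collagen-modifying genes, Sparc was past 2-fold higher with both pairs in both treatments, with 121 FPKM under siNC, 261 FPKM under pair 1 and 298 FPKM under pair 2 without TGF-β, and 174, 556 and 546 FPKM with TGF-β. Col1a1 and Col5a3 were past 2-fold higher with both pairs as well, but they reached 5 FPKM in knockdown libraries only and so had to be high there. Col5a3 was at 0.572, 1.62 and 2.16 FPKM with siNC, pair 1 and pair 2 without TGF-β, and it was 4.47, 22.7 and 24.8 FPKM with TGF-β.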

How the data were processed

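The authors purified polyadenylated RNA on oligo(dT) beads, sequenced directional libraries on the Ion Proton, aligned reads to mm10 with TopHat2 2.0.11 and Bowtie2 2.2.2.2, and estimated FPKM per gene with Cuffdiff (Cufflinks 2.2.0), per the submitters' processing notes. The deposited tables hold FPKM per library with the ends of the interval of Cuffdiff. Untransfected and siRNA libraries were processed independently, so comparisons stayed within 1 table. Of 23284 genes in each, 3 and 2 without an OK status were left out.

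FPKM are not counts, so the 8 untransfected libraries were fitted with limma 3.58.1 (R 4.3.3) on log2(FPKM + 1), with a separate mean for each group, and Benjamini-Hochberg adjustment ran over the 9100 genes with a maximum of at least 5 FPKM. The fit was tested on simulated data. For 7 members, FPKM were whole multiples of the value of 1 read (within 0.03 reads; for Loxl3 in the untransfected table only), which gave read numbers; Plod2, Plod3 and P4ha2 gave none. Relative depth came from the same steps. Ratios of reads carry exact binomial intervals. Other calculations used Python 3.11.15, pandas 2.3.3 and scipy 1.17.1.

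The text names the 10 members, genes of 3 lists (collagen-modifying, procollagen-processing and substrate genes) that passed the threshold, at most 4 per list and comparison, and the 3 genes with the highest Pearson r to each tested member whose group means spanned at least 2-fold. The members and lists were chosen with earlier results of these data known. Alternatives were the number added, the filter, the samples fitted, the scaling, the variance model, a replicate block and each library left out.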

Additional observations from a re-analysis of the deposited data

How the results depend on the processing

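Without TGF-β, 3 members were called between the lines, 3 to 4 with 1 library left out, and 1 of 6 where a mean of at least 10 FPKM was required, which removes Loxl1 and Loxl3. With TGF-β, 3 were called, 1 to 4 with 1 library left out and 5 with median-centred libraries. For TGF-β in EpH4 cells, 4 were called and 1 to 4 with 1 library left out, where the lone library of a group is assumed to vary like the others. For TGF-β in EpRas cells, 1 was called, and 0 where only the groups compared were fitted. Replicate numbers did not pair the libraries (correlations of replicate deviations -0.347 to 0.0785). With the replicate number as a block, 3, 3, 3, 1 and 0 members were called, in the order of the report, and 1121, 1520, 547, 222 and 31 genes in all, against 1598, 1935, 855, 348 and 73 without the block. Under the block, Plod1 was not called between the lines with TGF-β (adjusted p = 0.0762 with limma) or for TGF-β in EpH4 cells (0.0718), and Loxl3 was called between the lines with TGF-β (0.0446). Glt25d1 between the lines without TGF-β (0.0587) and Sparc (0.0869) and Leprel1 (0.0853) for TGF-β in EpRas cells were not called under the block either. With the numbers of untreated EpRas cells crossed, chosen after seeing the data, 4, 5, 5, 1 and 0 members and 1702, 2149, 872, 363 and 69 genes were called. Over all genes, counts with 1 library left out ranged from 733 to 2064, 822 to 2384, 239 to 1085, 127 to 413 and 10 to 127. A mean of at least 10 FPKM gave 880, 1092, 559, 225 and 24, fitting only the groups compared gave 45 for TGF-β in EpRas cells, and for the difference between responses no filter gave 117 and an intensity trend 45. The cause of these shifts was not tested, beyond the fewer genes or libraries that enter some fits.

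No called change turned its direction. Among changes not called, the log2 fold change with 1 library left out spanned 0 for P4ha2 between the lines without TGF-β (-0.28 to 0.25), P4ha1 with TGF-β (-0.01 to 0.65), and TGF-β in EpRas cells for Loxl3 (-0.30 to 0.25), Plod1 (-0.03 to 0.16), P4ha1 (-0.15 to 0.52) and P4ha2 (-0.13 to 0.51). In the siRNA libraries, only the 7 members at 5 FPKM or more are counted here. Without TGF-β, 1 member (Loxl3) passed 2-fold by the mean of both pairs and 0 with pair 2 alone. In both pairs, 1 passed 1.5-fold where 0 passed 2-fold. With TGF-β 0 passed 2-fold by the mean, against 1 (Loxl3) with pair 1 alone. Loxl3 was then at 61.1% of siNC by the mean and at 97.2% with pair 2.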
